A study of Mus musculus with 3 samples.

Results

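To describe the blood-cell miRNAs of ovaries kept in culture, 10 mature miRNAs known from leukocytes and red blood cells were followed across the 3 small RNA libraries of the study. They were taken by name from the 627 mature miRNAs of the table, and all 10 had a row. The leukocyte list held 7 of them (mmu-miR-142a-5p, mmu-miR-142a-3p, mmu-miR-223-3p, mmu-miR-150-5p, mmu-miR-155-5p, mmu-miR-146a-5p and mmu-miR-146b-5p) and the red-cell list held 3 (mmu-miR-451a, mmu-miR-144-3p and mmu-miR-486a-5p). The species prefix mmu is left off below. Ovaries of newborn CD1 mice were cultured for 72 h at 0, 10 or 100 μM di (2-ethylhexyl) phthalate (DEHP), a plasticizer dissolved in DMSO. The 0 μM ovaries received DMSO alone, and all groups shared a medium with fetal bovine serum. None of the libraries came from uncultured ovary, so what was lost or kept during culture is not seen. Many ovaries were pooled for each group, and 1 library was sequenced per concentration. Every difference below therefore compares libraries without replicates, with no p-value, and its 95% interval covers counting error only. The reads carry no molecular identifiers, so a read is not a separate molecule.

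miRNAs are short RNAs that pair with target mRNAs through their seed, bases 2 to 8, and lower the output of those targets. miR-142a is made across the blood lineage, miR-223 mainly in myeloid cells, miR-150 in mature lymphocytes, and miR-155 in activated lymphocytes and macrophages. miR-146a and miR-146b are made downstream of NF-κB and restrain its signalling, in many cell types besides leukocytes. miR-144 and miR-451a are cut from a common transcript that GATA1 drives in red-cell precursors, and miR-486a lies within Ank1, a gene of the red-cell membrane skeleton, and is also made in muscle. A cultured ovary can keep trapped blood cells and resident macrophages, but it has no circulation to bring new ones. In pooled tissue, fewer cells of a type and less of a miRNA per cell cannot be told apart.

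The mature sequences of 8 of the 10 members were read from RefSeq on GRCm38.p6. They are shown 5′ to 3′ with the seed in capitals, because only miR-146a-5p and miR-146b-5p had a seed in common.
miR-142a-5p: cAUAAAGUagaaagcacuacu
miR-142a-3p: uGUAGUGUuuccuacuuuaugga
miR-223-3p: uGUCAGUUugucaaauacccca
miR-155-5p: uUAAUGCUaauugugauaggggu
miR-146a-5p: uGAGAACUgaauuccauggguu
miR-146b-5p: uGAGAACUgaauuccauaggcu
miR-451a: aAACCGUUaccauuacugaguu
miR-144-3p: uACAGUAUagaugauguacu
The sequences of miR-150-5p and miR-486a-5p are not shown. The 8 sequences were 20 to 23 bases long. miR-146a-5p and miR-146b-5p shared 20 of 22 bases, and with positions counted from 1 at the 5′ end the differences from miR-146a-5p to miR-146b-5p were G18A and U21C. Among the 529 miRNAs of the table with a RefSeq sequence, no miRNA outside the members had one of these 7 seeds.

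The hairpins of miR-142a and miR-451a are shown because the results below compare the arms of the former and the position of the mature miRNA differs in the latter. Mature bases are in capitals.
Mir142: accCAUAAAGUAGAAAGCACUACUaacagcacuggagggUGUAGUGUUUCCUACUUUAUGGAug
Mir451a: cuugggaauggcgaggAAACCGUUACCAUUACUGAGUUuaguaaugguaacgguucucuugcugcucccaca
On GRCm38, Mir142 occupies chr11:87756864-87756927 (plus strand) in an intron of the non-coding host gene Mir142hg in GENCODE M21, and gives a mature miRNA from each arm. Mir451a occupies chr11:78073170-78073241, also on the plus strand. Its mature miRNA takes bases 17 to 38 of the 72-base hairpin and so runs from the 5′ arm into the loop, which is known to be cut by Argonaute 2 without Dicer. Mir144, at chr11:78073005-78073070, ends 99 bases before Mir451a, and neither overlaps a protein-coding gene. Mir223 (chrX:96242817-96242926) lies within an exon of F630028O10Rik, and Mir155 (chr16:84714140-84714204) within an exon of its host gene Mir155hg. Mir150 (chr7:45121757-45121821) and Mir146 (chr11:43374397-43374461, minus strand), which gives miR-146a, overlap no other annotated gene. Mir146b (chr19:46342762-46342870) lies in an intron of Mfsd13a, and Mir486 (chr8:23142555-23142682) in an intron of Ank1.

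The libraries held 5253367, 5064602 and 5952274 counts at 0, 10 and 100 μM over the 627 miRNAs. At 100 μM the 10 most abundant miRNAs took 70.5% of the counts, against 45.4% and 45.6% at 0 and 10 μM, so counts were divided by median-of-ratios size factors (1.38, 1.35 and 0.546) and are called normalized counts below. The lowest count at 0 μM was 10, so a miRNA under that count in untreated ovary is not seen. A log2 ratio was taken after adding 0.5 normalized counts. The floor was set at 3 counts, equal to 2.18, 2.23 and 5.50 normalized counts in the 3 libraries. The tissue label was checked with miR-202-5p, a gonadal miRNA, which had 41367, 53172 and 9799 counts and ranked 32nd, 25th and 55th. Of the miRNAs of other tissues, the muscle miRNA miR-1a-3p had 354, 252 and 252 counts, more than miR-155-5p and the rarer members in each library, and its part in the values of miR-486a-5p was not tested. A second muscle miRNA, miR-133a-3p, had 11, 9 and 6 counts. The liver miRNA miR-122-5p had 22, 14 and 8 counts, and the neuronal miR-124-3p had no row.

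The 10 blood-cell miRNAs together held 9667 counts at 0 μM, 10560 at 10 μM and 3658 at 100 μM, which was 0.184%, 0.209% and 0.0615% of the library. In normalized counts the sums were 7015, 7834 and 6702, a log2 ratio of -0.07 for 100 against 0 μM. The share of the library was thus lower at 100 μM, but whether the level was also lower depends on the scaling. Most of these reads came from miR-146a-5p and miR-146b-5p, which many other cells also make. This pair made up 93.8%, 95.1% and 95.3% of the leukocyte counts. The miRNAs most particular to leukocytes, miR-142a and miR-223, were far rarer. At 0 μM miR-142a-5p ranked 361st, miR-142a-3p 436th and miR-223-3p 474th of 627, with counts between those of miR-146b-5p (rank 96) and of the liver miRNA miR-122-5p (rank 531). The order of the members at 0 μM was miR-146b-5p, miR-146a-5p, miR-486a-5p, miR-155-5p, miR-451a, miR-142a-5p, miR-142a-3p, miR-150-5p, miR-223-3p and miR-144-3p. Neighbours in that order had overlapping Poisson intervals for miR-451a and miR-142a-5p, and along miR-142a-3p, miR-150-5p and miR-223-3p. The first 5 places were the same in all 3 libraries, while miR-150-5p stood above miR-142a-5p at 10 and 100 μM, with overlapping intervals in each.

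**Figure D1:**
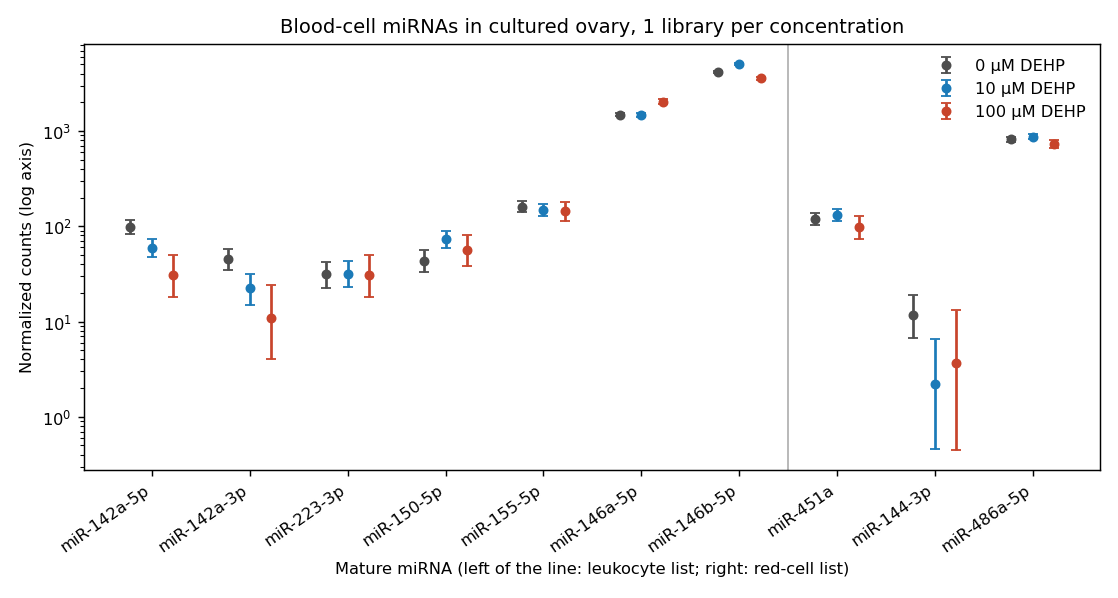
Normalized counts (log axis) of the 10 blood-cell miRNAs at 0, 10 and 100 μM DEHP, 1 library each, with exact Poisson 95% intervals as bars. The 2 miR-142a arms are lower in each higher concentration (98.7, 59.3 and 31.1 for miR-142a-5p), while miR-223-3p lies between 31.1 and 31.9 and miR-155-5p between 145 and 160.4.

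miR-142a was the leukocyte miRNA with the largest difference between libraries. miR-142a-5p had 136 counts at 0 μM, 80 at 10 μM and 17 at 100 μM, or 98.7, 59.3 and 31.1 normalized counts. The exact Poisson interval at 0 μM, 82.8 to 117 normalized counts, lay above those of both treated libraries, which overlapped each other. Relative to 0 μM the log2 ratio was -0.73 at the lower concentration (95% counting interval -1.15 to -0.32) and -1.65 at the higher (-2.48 to -0.93). From 10 to 100 μM it was -0.92 (-1.78 to -0.16).

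The other arm followed the same order at lower counts. miR-142a-3p had 62, 30 and 6 counts, or 45.0, 22.3 and 11.0 normalized counts. Its log2 ratio to 0 μM was -0.999 at 10 μM (-1.70 to -0.36) and -1.98 at 100 μM (-3.53 to -0.83). For 100 against 10 μM the interval held 0 (-2.57 to 0.27). The count ratio of the 5p to the 3p arm, in which the scaling between libraries cancels, was 2.19, 2.67 and 2.83. Its change from 0 to 100 μM was 0.37 on the log2 scale (exact conditional interval -1.13 to 2.07), so a difference between the arms was not detectable at this depth. Across the 587 miRNAs with a mean of at least 10 normalized counts, 12.4% had a lower log2 ratio at 100 μM than miR-142a-5p and 9.54% a lower one than miR-142a-3p, so neither stood outside the spread of this library. At 10 μM these shares were 8.52% and 5.11%.

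The myeloid miRNA miR-223-3p did not show this pattern. Its counts were 43, 43 and 17, which is 31.2, 31.9 and 31.1 normalized counts, and its log2 ratio to 0 μM was 0.03 at 10 μM (-0.61 to 0.68) and 0.00 at 100 μM (-0.91 to 0.84). With so few counts, changes of up to 0.84 upward or 0.91 downward lie within counting error. With total counts the value at 100 μM was -1.49, beside a median of all miRNAs of -1.53. The count ratio of miR-142a-3p to miR-223-3p took the values 1.44, 0.698 and 0.353 with rising DEHP. Its log2 change from 0 μM was -1.05 at 10 μM (-1.99 to -0.11) and -2.03 at 100 μM (-3.76 to -0.46). For miR-142a-5p to miR-223-3p the change was -0.77 at 10 μM (-1.54 to 0.01) and -1.66 at 100 μM (-2.85 to -0.46). These pairs were chosen after their values were seen.

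miR-150-5p, the lymphocyte miRNA, was higher at 10 μM than at 0 μM. It had 60, 99 and 31 counts, or 43.5, 73.4 and 56.8 normalized counts. The log2 ratio was 0.75 at 10 μM (0.28 to 1.24), above that of 95.2% of the 587 miRNAs, and 0.38 at 100 μM (-0.29 to 1.03). Its direction at 100 μM turned with the scaling, to -1.12 with total counts and -0.38 with totals that left out the 10 most abundant miRNAs. The count ratio of miR-150-5p to miR-142a-5p, chosen after its values were seen, was 0.441, 1.24 and 1.82. It was higher by 1.49 on the log2 scale at 10 μM (0.85 to 2.13) and by 2.05 at 100 μM (1.02 to 3.10) than at 0 μM.

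miR-155-5p, induced in activated leukocytes, had 221, 199 and 79 counts. These were 160.4, 148 and 145 normalized counts, and the 3 Poisson intervals overlapped. Its log2 ratios to 0 μM were -0.12 at 10 μM (-0.40 to 0.16) and -0.15 at 100 μM (-0.54 to 0.23). With total counts the value at 100 μM became -1.66.

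miR-146a-5p and miR-146b-5p, which have the same seed, changed unequally between the libraries. miR-146a-5p had 2048, 1991 and 1103 counts, or 1486, 1477 and 2021 normalized counts. Its log2 ratio was -0.01 at 10 μM (-0.10 to 0.08) and 0.44 at 100 μM (0.34 to 0.55), but -1.07 at 100 μM with total-count scaling and -0.32 with library totals that left out the 10 most abundant miRNAs. miR-146b-5p had 5790, 6758 and 1949 counts, or 4201, 5014 and 3571 normalized counts. Its log2 ratio was 0.25 at 10 μM (0.20 to 0.31) and -0.23 at 100 μM (-0.31 to -0.16), and under those alternative scalings -1.75 and -0.999 at 100 μM, so that both miRNAs were then below 0. Unlike these values, the count ratio of miR-146a-5p to miR-146b-5p does not depend on the scaling. Its values were 0.354, 0.295 and 0.566 at 0, 10 and 100 μM, a change of -0.26 on the log2 scale at 10 μM (-0.37 to -0.16) and of 0.68 at 100 μM (0.55 to 0.81). This pair was also chosen after its values were seen. How far reads of these near-identical miRNAs were shared between the 2 rows is not stated. Their summed normalized counts were 5687, 6491 and 5591, so the log2 ratio of the sum at 100 μM was -0.02.

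Among the red-cell miRNAs, the intervals of miR-451a and miR-486a-5p against 0 μM held 0 at both concentrations with median-of-ratios scaling. At 100 μM they were -1.78 and -1.67 with total counts, and -1.03 and -0.92 with totals that left out the 10 most abundant miRNAs. miR-451a had 165, 177 and 54 counts, or 119.7, 131 and 98.9 normalized counts, and its Poisson intervals overlapped between all libraries. The log2 ratios to 0 μM were 0.13 at 10 μM (-0.18 to 0.45) and -0.27 at 100 μM (-0.75 to 0.18). miR-486a-5p had 1126, 1180 and 400 counts, or 817, 875 and 733 normalized counts, with log2 ratios of 0.10 (-0.02 to 0.22) and -0.16 (-0.33 to 0.01). From 10 to 100 μM it was -0.26 (-0.42 to -0.09). The count ratio of miR-486a-5p to miR-451a was 6.82, 6.67 and 7.41, and its change at 100 μM was 0.12 (-0.37 to 0.62), a pair chosen after its values were seen.

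The table cannot separate miR-486a from miR-486b, whose rows hold identical counts for each arm. The 3p arm of miR-486a did not follow the 5p arm. miR-486a-3p had 44, 19 and 58 counts, or 31.9, 14.1 and 106 normalized counts. Its log2 ratio was -1.15 at 10 μM (-2.04 to -0.37) and 1.72 at 100 μM (1.14 to 2.33), and the latter became 0.22 with total-count scaling. The count ratio of the 5p to the 3p arm took the values 25.6, 62.1 and 6.90. On the log2 scale this was a change of 1.28 at 10 μM (0.46 to 2.15) and of -1.89 at 100 μM (-2.51 to -1.27). Of the other partner arms and antisense miRNAs of the member hairpins, 8 had no row (miR-223-5p, miR-150-3p, miR-155-3p, miR-146a-3p, miR-146b-3p, miR-144-5p, miR-451b and miR-142b).

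miR-144-3p was the rarest member and the only one under the minimum mean of 10 normalized counts. Its 16 counts at 0 μM stood against 3 and 2 in the treated libraries, both at or under the floor. No miRNA of the table had fewer than 10 counts at 0 μM, while the lowest counts at 10 and 100 μM were 2 and 0. At such low counts the table can show a lower value with DEHP, but a rare miRNA with the opposite pattern would not be seen. Its log2 ratio to 0 μM was -2.15 at 10 μM (-4.80 to -0.58) and -1.54 at 100 μM (-4.83 to 0.42). Against miR-451a, its neighbour in the same transcript, the count ratio was 97.0, 16.9 and 37.0 per 1000 reads of miR-451a. The change was -2.52 at 10 μM (-4.96 to -0.67) and -1.39 at 100 μM (-4.59 to 0.78), and with counts of 3 and 2 the size of this difference spans several log2 units of counting error.

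**Figure D2:**
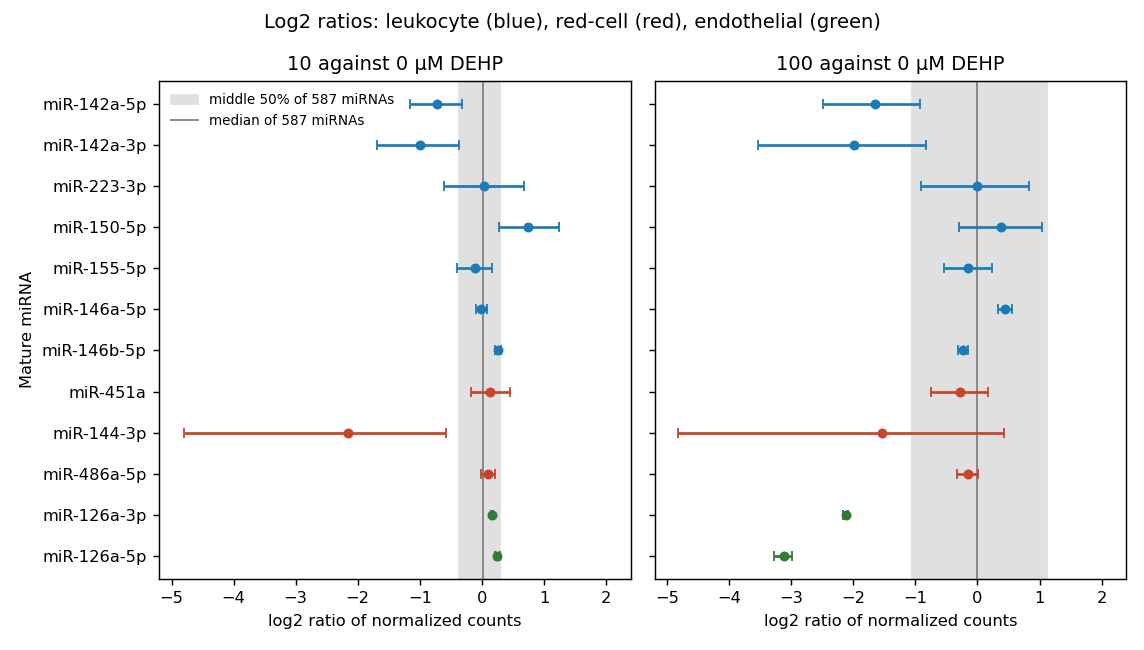
Log2 ratio of normalized counts to 0 μM DEHP for the blood-cell miRNAs and for both arms of endothelial miR-126a, at 10 μM (left) and 100 μM (right), with 95% counting intervals as bars and the middle 50% of the 587 miRNAs shaded. At 100 μM the miR-142a arms (-1.65 and -1.98) lie below the shaded range, the other members that passed the minimum lie within it, and miR-126a lies at -2.12 and -3.12.

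The members were next set beside all miRNAs of the table. Of the 9 members that passed the minimum count, 0 had a log2 ratio beyond 2 in either direction in any comparison. The share of all 587 miRNAs beyond 2 was 0.681% for 10 against 0 μM, 19.8% for 100 against 0 μM and 21.0% for 100 against 10 μM. Below a log2 ratio of -1 were 0 of 9 members for 10 against 0 μM, 2 of 9 for 100 against 0 μM (the miR-142a arms) and 0 of 9 for 100 against 10 μM, beside 5.11%, 25.7% and 24.7% of all miRNAs. The counting interval left out 0 for 4 of 9 members in each comparison, beside 55.2%, 75.5% and 75.1% of all miRNAs. The rarer members have wide intervals, and the part of depth in these shares was not tested. For 10 against 0 μM the 4 were miR-142a-5p and miR-142a-3p (lower), and miR-150-5p and miR-146b-5p (higher). For 100 against 0 μM they were miR-142a-5p, miR-142a-3p and miR-146b-5p (lower), and miR-146a-5p (higher, though lower with total counts and with totals that left out the 10 most abundant miRNAs). For 100 against 10 μM they were miR-142a-5p, miR-146b-5p and miR-486a-5p (lower), and miR-146a-5p (higher, with the same exception).

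The median log2 ratio of the leukocyte list was -0.01 at 10 μM and -0.15 at 100 μM, and that of the 2 red-cell members past the minimum was 0.12 and -0.22. The median of all miRNAs was 0.02 and -0.01. From 10 to 100 μM the medians were -0.37, -0.33 and -0.03 in the same order. Over the 5 leukocyte members other than miR-142a the median at 100 μM was 0.00, and the summed miR-142a arms made up 2.37%, 1.20% and 0.718% of the leukocyte counts at 0, 10 and 100 μM.

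**Figure D3:**
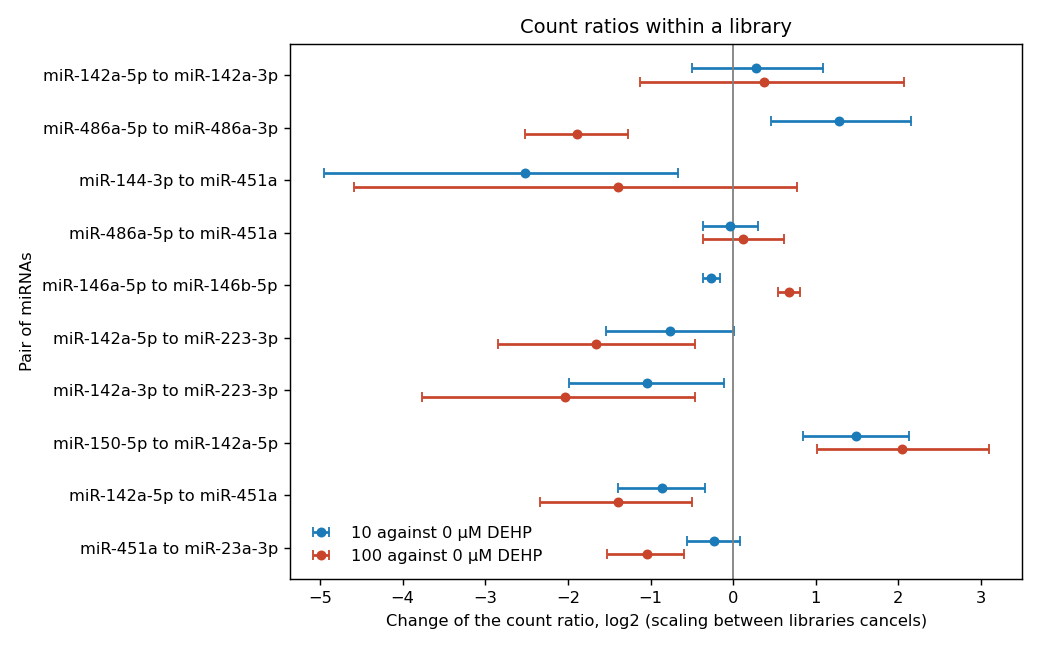
Change of the count ratio between pairs of miRNAs on the log2 scale, at 10 and 100 μM against 0 μM DEHP, with exact conditional 95% intervals as bars. The scaling between libraries cancels in these ratios. At 100 μM the ratios of both miR-142a arms to miR-223-3p and of miR-142a-5p to miR-451a lie below 0. That of miR-486a-5p to miR-451a (0.12) lies near 0. The pairs named here were chosen after their values were seen.

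Because the scaling moved the level of all miRNAs at 100 μM, the members were also set against single partners of the same library. miR-451a was compared with miR-23a-3p, a pair used in plasma to mark haemolysis. Per 1000 reads of miR-23a-3p there were 32.9, 27.9 and 15.9 reads of miR-451a. The change was -0.24 at 10 μM (-0.56 to 0.08) and -1.05 at 100 μM (-1.52 to -0.59). Between the lists, the count ratio of miR-142a-5p to miR-451a, chosen after its values were seen, was 0.824, 0.452 and 0.315. Its change was -0.87 at 10 μM (-1.39 to -0.34) and -1.39 at 100 μM (-2.33 to -0.50). As to the haemolysis pair, miR-23a-3p had 3640, 4704 and 6214 normalized counts, while the normalized counts of miR-451a overlapped between libraries. Which of the 2 differed depends on the scaling. For 100 against 0 μM, total counts gave -0.74 for miR-23a-3p and -1.78 for miR-451a. Totals that left out the 10 most abundant miRNAs gave 0.01 and -1.03.

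The comparison with endothelium used miR-126a-3p, the miRNA of vessel lining cells, in whose vessels blood would lie. miR-126a-3p had 54626, 59970 and 4970 counts, or 39638, 44490 and 9105 normalized counts, and its log2 ratio at 100 μM was -2.12 (-2.16 to -2.08). Of all miRNAs past the minimum count, 8.52% had a lower log2 ratio at 100 μM than miR-126a-3p. A higher count ratio to miR-126a-3p at 100 μM was therefore common to most miRNAs and not particular to the members. For 7 of the 10 members the count ratio to miR-126a-3p was higher at 100 than at 0 μM with an interval above 0. The changes of these 7 ran from 1.85 for miR-451a (1.37 to 2.30) to 2.57 for miR-146a-5p (2.45 to 2.68). For the other 3, both arms of miR-142a and miR-144-3p, the intervals held 0. The change was 0.46 for miR-142a-5p (-0.36 to 1.19) and 0.09 for miR-142a-3p (-1.41 to 1.29). The other endothelial arm, miR-126a-5p, had a log2 ratio of -3.12 at 100 μM (-3.27 to -2.98). This lay below the interval of miR-142a-5p (-2.48 to -0.93) but within that of miR-142a-3p (-3.53 to -0.83). At 10 μM the ratio of miR-142a-5p to miR-126a-3p changed by -0.90 on the log2 scale (-1.32 to -0.49), and that of miR-142a-3p by -1.18 (-1.86 to -0.53). Both arms of miR-126a together held 63628, 70433 and 5379 counts, and the part of vessel cells in the values of the blood-cell miRNAs was not tested.

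**Figure D4:**
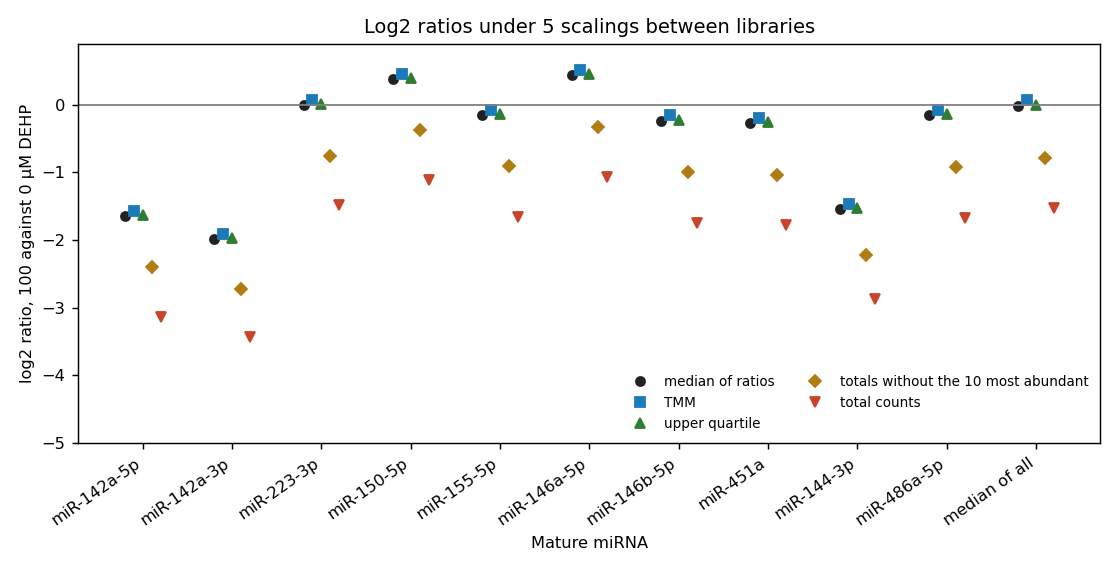
Log2 ratio between 100 and 0 μM DEHP of each blood-cell miRNA, and the median of all miRNAs, under 5 scalings between libraries. Total counts and totals without the 10 most abundant miRNAs move all points down together (the median to -1.53 and -0.78). Such a common shift leaves the order of the members nearly unchanged, so that order is no check on the scaling. The lowest 3 members are the miR-142a arms and miR-144-3p. For miR-144-3p the value rests on 2 counts at 100 μM, with a counting interval that held 0.

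The scaling set the size of the log2 ratios at 100 μM, and the sign for miR-223-3p, miR-150-5p and miR-146a-5p. With median-of-ratios factors 8 of the 10 log2 ratios to 0 μM were below 0 and 2 above, and with TMM or upper-quartile factors 7 were below and 3 above. The median of all miRNAs was -0.01, 0.07 and 0.00 in that order, so values near 0 take either sign. Under each of these scalings only 3 members had a counting interval below 0, and 1 had an interval above 0. With total counts all 10 were below 0, from -3.43 to -1.07, with all 10 counting intervals below 0, and the median of all miRNAs was itself -1.53. Below 0 under all 5 scalings were both miR-142a arms, miR-155-5p, miR-146b-5p, miR-451a, miR-144-3p and miR-486a-5p. Of these, miR-155-5p, miR-451a, miR-144-3p and miR-486a-5p had intervals that held 0 with median-of-ratios factors. With TMM factors miR-155-5p was at -0.07 and miR-486a-5p at -0.08. The values ran from -1.57 to -3.14 for miR-142a-5p and from -1.91 to -3.43 for miR-142a-3p. At 10 μM the scalings moved the median of all miRNAs by at most 0.06, and the miR-142a arms and miR-144-3p had intervals below 0 under each of them.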

How the data were processed

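Small RNA libraries from ovaries cultured with 0, 10 or 100 μM DEHP were compared, 1 per concentration. The authors deposited raw counts per mature miRNA and precursor, made by trimming of adapters and poor reads, alignment with bowtie2 and quantification with miRDeep2. Their processing notes name mm10 and DESeq2. Versions and the miRBase release are not given in the sources used here. Of 961 rows, the highest-total row of each of 627 mature IDs was kept. DESeq2 1.42.0 gave the size factors and edgeR 4.0.16 the TMM and upper-quartile factors (R 4.3.3). Python 3.11.15 computed log2 ratios (0.5 added), Clopper-Pearson intervals of the 2 counts compared, exact conditional intervals for changes of count ratios and exact Poisson intervals. Shares over all miRNAs used the 587 with a mean of at least 10 normalized counts. The code was tested on simulated counts.

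Named miRNAs were all members, the other arms of their hairpins, marker miRNAs of other cell types, miR-23a-3p and the 3 nearest non-members of the most abundant leukocyte and red-cell member. Members, lists and tests were chosen with earlier results of these data known. Alternatives were 4 other scalings, 1 normalized count added, summed rows, no minimum or a minimum of 100, and a log2 threshold of 1. No replicate, pairing or batch was given by the labels.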

Additional observations from a re-analysis of the deposited data

How the results depend on the processing

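No paired analysis was possible because each concentration has a single library, which also leaves no replicate to omit. Depth limits the rarest members most, since miR-144-3p had 3 counts or fewer in both treated libraries and miR-142a-3p 6 counts at 100 μM.

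Of 180 log2 ratios of members under an alternative, 150 stayed within their counting interval, 26 left it, and 4, all of miR-146a-5p, changed sign where the interval had left out 0. Where the interval held 0, signs also turned, among them miR-150-5p for 100 against 0 μM (0.38 to -1.12 with total counts) and miR-144-3p for 100 against 10 μM (0.61 to -0.68). The 4 values of miR-146a-5p were -1.07 with total counts and -0.32 with totals that left out the 10 most abundant miRNAs for 100 against 0 μM. For 100 against 10 μM they were -1.08 and -0.35. Summing the rows of a mature ID could alter only the count ratios with miR-486a-5p, since the other miRNAs in these ratios have 1 row, and those stayed within their intervals.

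With total counts the median log2 ratio for 100 against 0 μM became -1.66 for the leukocyte list and -1.73 for the red-cell list, and for 100 against 10 μM -1.89 and -1.86. Without the 10 most abundant miRNAs these were -0.91 and -0.98, then -1.17 and -1.13. These moves follow the common shift of all miRNAs, -1.52 and -0.77 for 100 against 0 μM. Members beyond 2 became 2 with either of these scalings for 100 against 0 μM and 3 with total counts for 100 against 10 μM. Over all miRNAs, 213 (total counts) and 130 (without the 10 most abundant) were then lower beyond 2 for 100 against 0 μM. For 100 against 10 μM with total counts they were 226. The member beyond 2 for 10 against 0 μM with no minimum was 1, miR-144-3p.

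Over all miRNAs, 61 were higher and 55 lower beyond 2 for 100 against 0 μM, and 72 and 51 for 100 against 10 μM. These became 4 and 213, and 8 and 226, with total counts, and 23 and 130, and 24 and 119, without the 10 most abundant. A minimum of 100 left 25 and 24 lower, and 1 for 10 against 0 μM, where no minimum gave 9. With a threshold of 1 the counts were 157 higher and 151 lower (2 members), 173 and 145, and 9 and 30 for 10 against 0 μM.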

Other observations

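A further 8 miRNAs that are abundant in blood cells without being particular to them were in the table, and all 8 passed the minimum count. Their median log2 ratio for 100 against 0 μM was -0.20. miR-181a-5p, known from lymphocyte development, had 33988, 30211 and 2617 counts at 0, 10 and 100 μM and a log2 ratio at 100 μM of -2.36 (95% counting interval -2.42 to -2.31), which lay between -3.88 and -2.28 under the 5 scalings. miR-15a-5p was at -1.07 (-1.56 to -0.61). miR-25-3p had a log2 ratio of 1.44 at 100 μM, but -0.07 with total counts. miR-16-5p, which is plentiful in red cells, was at -0.36, miR-92a-3p at -0.53, miR-342-3p at -0.04, miR-342-5p at 0.28 and miR-21a-5p at 0.12, each lower with total counts. At 10 μM the list ran from -0.14 for miR-181a-5p to 0.52 for miR-92a-3p.

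Of the other marker lists, the median log2 ratio at 100 μM was -2.62 for the 2 endothelial arms and 0.02 for the 2 gonadal arms of miR-202. It was 0.93 for the 9 germ-cell miRNAs with a row, 0.14 for 3 stromal and 0.09 for 5 epithelial miRNAs. For the 2 miRNAs of other tissues past the minimum it was 0.36, each with median-of-ratios scaling. These medians hide values in both directions. The epithelial values ran from -5.62 (miR-141-3p, 1 count at 100 μM) to 1.13, and the germ-cell values from -1.44 to 2.93. The stromal values ran from -0.57 to 0.96 and those of miR-202 from -0.74 to 0.78.

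Among 369 non-members with a mean of at least 100 normalized counts, those nearest to miR-146b-5p in their log2 ratios at 10 and 100 μM were miR-98-5p (Euclidean distance 0.059), miR-7a-5p (0.078) and miR-361-5p (0.11). Nearest to miR-486a-5p were miR-486b-5p, whose counts are the same, miR-128-3p (0.034) and miR-195a-5p (0.045). Likeness over 3 libraries is a description only.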
